A study of Mus musculus with 15 samples.

Results

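The 6 liver pools described here came from adult male mice of the second filial generation (F2), whose fathers had met a nutritional challenge around birth, and they are set against the 3 control pools of the same series. They are 6 of 15 pools and were taken by their labels alone. Pools 10, 11 and 12 (IUGR F2) held livers of sons of males that had been underfed by 50% before birth, a model of intrauterine growth restriction. Pools 13, 14 and 15 (ON F2) held livers of sons of males that had been overfed while suckling. The sons are given no treatment of their own in the labels, so the exposure lay in the fathers. Control pools 1, 2 and 3 were made of male livers from the unexposed line and drew on both generations, so the F2 pools had no control of their own generation alone. The titles give 3 liver samples for each pool, and the labels give neither strain nor age beyond adult, and no litter. The fathers' own generation (F1) supplied 3 IUGR and 3 ON pools. Whether any pool of sons descends from a particular pool of fathers is not stated. The p-values measure only the spread between these pools.

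The study asked whether expression patterns of exposed males are present in the next generation through the paternal line. A father hands on sperm rather than a womb or milk, so work of this kind looks at DNA methylation, histone marks and small RNAs of sperm as possible carriers. Liver is a usual readout, since it makes fatty acids and cholesterol after a meal, burns fatty acids and releases glucose in fasting, and clears foreign compounds. SREBP and LXR factors drive the synthesis genes, PPARA the oxidation genes, and CAR, PXR and NRF2 the detoxifying genes. Whole liver also carries RNA of Kupffer cells, endothelium, stellate cells, B cells and plasma cells. In such pools, fewer cells of a type and less RNA per cell cannot be told apart.

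Levels are log2 values of the robust multi-array average (RMA), and differences are F2 minus control on that scale, each lineage with equal weight. Errors of means are SD over pools, and errors of differences are standard errors from limma. Of 18193 genes, 0 were called at an adjusted p under 0.05 (limma, Benjamini-Hochberg), which is 0.0% higher and 0.0% lower. The smallest adjusted p was 0.164 with limma. At an unadjusted p under 0.05, 740 genes (4.07%) were higher and 1339 (7.36%) lower in F2, where chance alone gives 2.5%, or 455 genes, in each direction. In 370 genes (2.03%) all 6 F2 pools lay above all 3 control pools, and in 628 (3.45%) all lay below. Since no gene was called, the members of the gene lists are described by their values, their counts and unadjusted p-values.

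The surplus of lower genes lay among bright genes. Of 10363 genes with a mean of at least 5, 1175 (11.3%) were lower and 322 (3.11%) higher at an unadjusted p under 0.05. Of the 7830 genes with a mean below 5, 164 (2.09%) were lower and 418 (5.34%) higher. The median difference was -0.04 in the bright genes and 0.02 in the dim ones. Of all genes under that threshold 35.6% were higher. The share was 14% with each array centred on its median (359 higher, 2198 lower), and 21.2% with the bright genes alone (319 higher, 1187 lower). Array medians moved with the groups: they were 4.60 to 4.62 in the controls and 4.63 to 4.68 in the F2 pools, with no overlap. The interquartile range of gene levels was 3.37 ± 0.07 in control, 3.33 ± 0.03 in IUGR F2 and 3.22 ± 0.06 in ON F2 (SD, n = 3 each). The log2 ratio of 3' over 5' actin probe sets, which rises as RNA gets shorter, averaged 1.87 ± 0.10 in control and 2.03 ± 0.15 in F2 (SD, n = 3 and 6). The part of these features in the tilt between higher and lower genes was not tested. The number of arrays limits the precision, with a median standard error of 0.0897 over the genes.

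**Figure D1:**
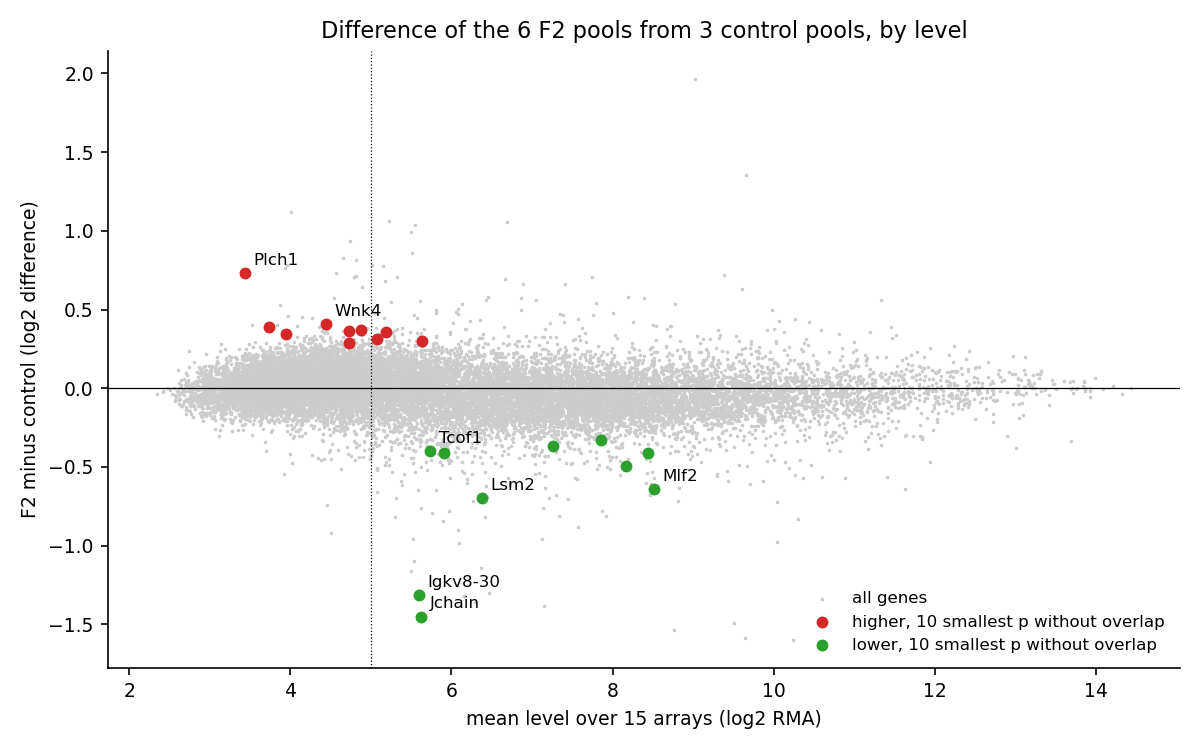
Each point is a gene, with its mean level over 15 arrays (log2 RMA) on the horizontal axis and the difference of the 6 F2 pools from the 3 control pools (log2) on the vertical axis; the dotted line marks a level of 5. The 10 leading higher genes (red) have means of 3.44 to 5.64 and the 10 leading lower genes (green) means of 5.60 to 8.52.

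Among the genes that lay higher in F2 with no overlap between the groups, the 10 with the smallest p were mostly dim. Of these 7 had a mean below 5 over the 15 arrays. Plch1, which encodes a phospholipase C, led them. It stood at 3.19, 3.15 and 3.00 in control pools 1 to 3, at 3.46, 3.93 and 4.03 in the IUGR F2 pools, and at 3.95, 3.85 and 3.85 in the ON F2 pools. All F2 pools lay above all controls, and pool 10 lay nearest to them. The difference was 0.73 ± 0.13, a 1.66-fold higher level, at an adjusted p of 0.164 with limma. Sema7a, a membrane-anchored semaphorin, stood at 5.00, 4.88 and 5.05 in control, at 5.22, 5.30 and 5.32 in IUGR F2 and at 5.28, 5.36 and 5.25 in ON F2. The 6 F2 pools lay close together, and the difference was 0.31 ± 0.06, or 0.19 with the mean of its 2 probe sets. Wnk4, a kinase that regulates ion transport, stood 0.40 ± 0.09 above control. The other 7 were Rab36, Magea7-ps, Phxr4, Zfp296, Kcnd1, Scn9a and Prkd1, with differences between 0.29 for Magea7-ps and 0.39 for Prkd1. Kcnd1 and Scn9a encode a potassium and a sodium channel. With the mean of all probe sets of a gene, Rab36, Prkd1, Kcnd1 and Scn9a lay at 0.21, 0.22, 0.19 and 0.05.

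The 10 leading lower genes had means of 5.60 to 8.52. Tcof1 encodes treacle, a nucleolar protein of ribosomal RNA synthesis. It stood at 5.98, 5.98 and 5.91 in control, at 5.59, 5.72 and 5.67 in IUGR F2, and at 5.41, 5.47 and 5.46 in ON F2. Every F2 pool lay below every control pool, and the ON pools lay lowest. The difference was -0.40 ± 0.07, at an adjusted p of 0.164 with limma. It was -0.15 with the mean of the gene's 3 probe sets, 1 of which pointed the other way. Baiap2l1, an actin-binding adaptor, lay at -0.36 ± 0.07, and Get3, the ATPase that hands tail-anchored proteins to the endoplasmic reticulum, at -0.49 ± 0.09.

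Mlf2 stood at 9.24, 8.67 and 8.85 in control, at 8.15, 8.45 and 8.15 in IUGR F2, and at 8.46, 8.28 and 8.19 in ON F2, with no overlap. Its difference was -0.64 ± 0.12. Lsm2, a core protein of the spliceosome's U6 particle and of messenger RNA decay, stood at 7.06, 6.62 and 6.63 in control. Its F2 levels were 6.17, 6.37 and 5.96 in the IUGR line and 6.06, 5.90 and 5.96 in the ON line, a difference of -0.70 ± 0.14. Phpt1, a protein histidine phosphatase, lay at -0.41 ± 0.08 and Fam50a at -0.33 ± 0.06. Btrc, the substrate-binding part of an SCF ubiquitin ligase, lay at -0.41 ± 0.08 at its brightest probe set. Of its 5 probe sets 4 pointed the other way, and their mean gave 0.04. Igkv8-30 and Jchain complete the 10 and belong to the antibody genes described further on.

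**Figure D2:**
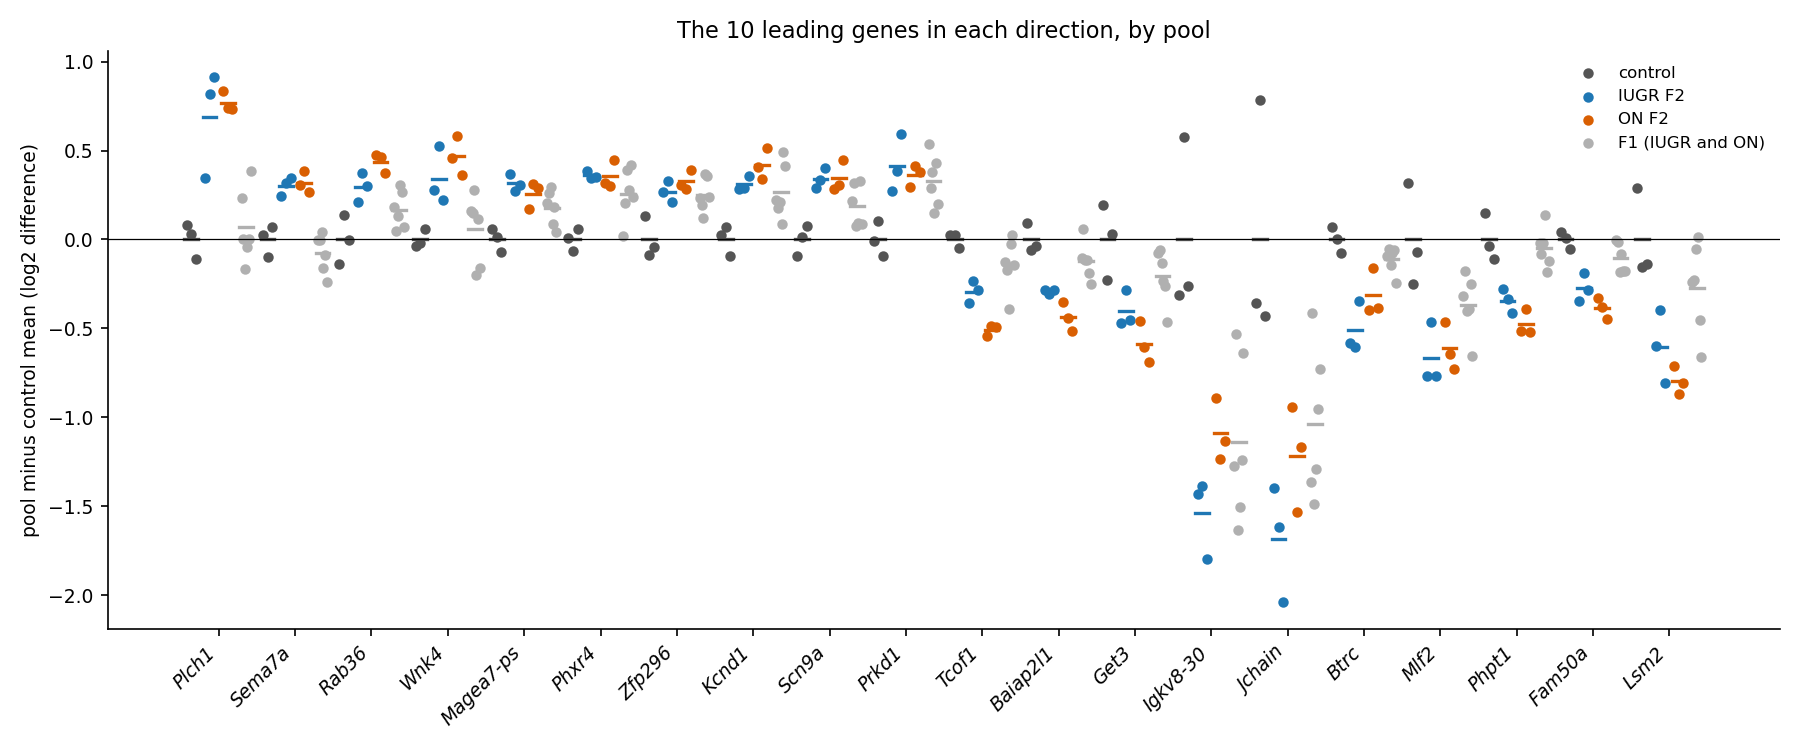
Each point is a pool, plotted as its level minus the mean of the control pools (log2) for the 10 leading genes in each direction; short lines are group means, and grey points are the 6 pools of the fathers' generation. The F2 pools of Sema7a lie above all F1 pools, whereas the F1 pools of Igkv8-30 lie below the controls and reach above the F2 pools.

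The fathers' pools give a second reference. Of all genes, 246 (1.35%) were called higher and 447 (2.46%) lower in F2 than in the 6 F1 pools (limma, adjusted p under 0.05). The genes named here were chosen because the same 6 F2 pools lay apart from control, so their differences from F1 are given as values, with no test. Sema7a averaged 4.90 in F1 and 5.29 in F2, a difference of 0.39 ± 0.05. Plch1 lay 0.66 ± 0.10 and Wnk4 0.35 ± 0.07 above F1. Phpt1 stood at -0.36 ± 0.07 relative to F1, and Jchain, Igkv8-30 and Mlf2 at -0.41, -0.17 and -0.27.

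Genes of antibody-secreting cells had the largest differences among the leading lower genes. Jchain encodes the joining chain that links IgM and IgA into multimers. It stood at 6.26, 7.41 and 6.19 in control, at 5.23, 5.01 and 4.58 in IUGR F2, and at 5.68, 5.09 and 5.46 in ON F2. All 6 F2 pools lay below all controls, and control pool 2 stood above the rest. The difference was -1.45 ± 0.28, a 2.73-fold lower level, at an adjusted p of 0.164 with limma. It was -1.06 without control pool 2. Igkv8-30, a kappa light-chain variable segment, stood at 6.26, 7.15 and 6.31 in control. In F2 it stood at 5.14, 5.19 and 4.78 in the IUGR line and at 5.68, 5.34 and 5.44 in the ON line. The groups did not overlap, and the difference was -1.31 ± 0.24. The F1 pools held Igkv8-30 at 4.94 to 6.04, also below every control pool.

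Ighm, the constant region of the IgM heavy chain, was the brightest of these. It stood at 10.58, 10.83 and 9.91 in control, at 8.43, 8.59 and 7.89 in IUGR F2, and at 9.05, 8.75 and 10.98 in ON F2. ON F2 pool 15 stood above every control, and the other F2 pools lay below. The difference was -1.49 ± 0.43 at an adjusted p of 0.293 with limma, and -1.84 without pool 15. Of 11 probe sets 2 pointed the other way, and their mean gave -0.38. The heavy chains of other antibody classes lay near control, with Igha at -0.09 ± 0.15 and Ighg3 at 0.03 ± 0.14. Of 18 genes with an immunoglobulin symbol, 14 lay lower (77.8%, beside 52.6% of all genes) and 14 had a mean below 5, and their median was -0.07. Of 15 B cell and plasma cell markers 10 lay lower (66.7%, beside 52.6% of all genes), with a median of -0.13. Cd79a, Cd79b, Ms4a1 and Mzb1 lay at -0.12, -0.15, -0.26 and -0.18. The lower side rested on control pool 2: without it the list median was -0.01, and Cd79a, Cd79b and Ms4a1 lay at -0.02, -0.01 and 0.01. Mzb1 was -0.11 without control pool 1. The mean level of that marker list was 5.62 to 5.96 in the controls and 5.39 to 5.65 in the F2 pools. Of the markers Xbp1 alone was higher at an unadjusted p under 0.05, by 0.26 ± 0.11, or 0.14 without control pool 1. It is the factor that turns B cells into secreting cells and also serves hepatocytes. The part of B cell content in the antibody genes was not tested.

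Antigen-presenting cells show peptides on MHC class II molecules, whose alpha and beta chains are built in the endoplasmic reticulum around the invariant chain Cd74. H2-Eb1 stood at 6.53, 7.36 and 7.03 in control, at 5.27, 6.29 and 6.12 in IUGR F2, and at 6.06, 6.60 and 6.57 in ON F2. ON pools 14 and 15 lay just above control pool 1, and the other F2 pools lay below all controls. The difference was -0.82 ± 0.24. H2-Ab1 stood at 5.80, 6.39 and 6.54 in control, at 5.62, 5.92 and 5.66 in IUGR F2 and at 5.72, 5.89 and 5.86 in ON F2, a difference of -0.46 ± 0.14. Cd74 differed by -0.45 ± 0.14 and H2-Aa by -0.43 ± 0.15, and the smallest adjusted p of these 4 genes was 0.293 with limma. H2-Aa was -0.20 without control pool 2 and -0.68 without control pool 1. Of 11 genes of the list 9 lay lower (81.8%), and 4 were under an unadjusted p of 0.05 in that direction (36.4%). For the genes with a mean of at least 5 these shares were 62.0% and 11.3%. H2-Ea lay higher, by 0.24 ± 0.11 (0.14 without control pool 3), and Ciita, the coactivator that switches these genes on, stood at 0.15 ± 0.11. Of the 11 genes 4, Ciita among them, had a mean below 5, and of all genes that dim 59.7% lay higher. The median of the list was -0.07, and -0.43 over its members with a mean of at least 5, against -0.01 over all genes. Cxcl9, a chemokine induced by interferon gamma, stood at 7.86, 7.45 and 8.02 in control, at 7.05, 7.06 and 7.12 in IUGR F2 and at 7.23, 7.14 and 6.17 in ON F2. These groups did not overlap, and the difference was -0.81 ± 0.35. Of 26 interferon response genes, Cxcl9 included, 1 was under the unadjusted threshold. In IUGR F2 11 of the 26 lay lower and in ON F2 21, beside 9724 and 9218 of the 18193 genes. The list medians were 0.03 and -0.20 against the same control pools. The pooled median of -0.11 was 0.04 without control pool 3.

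The promoters of 2 class II genes that lay lower and of 2 lipid synthesis genes are shown because these 4 genes lay lower in F2 and their promoters hold a known box for a CCAAT-binding factor, which not all members of their lists do. Each line holds the 150 bases before the start of the gene, 5′ to 3′ on the strand of the gene, from RefSeq on GRCm38.p6. Capitals mark the Y box of class II promoters (CTGATTGG, or CCAATCAG on the other strand) in the H2 genes, and the CCAAT box (CCAAT, or ATTGG on the other strand) in Fasn and Mvd. The Y box holds a reversed CCAAT box.
H2-Aa (chr17:34287824-34287973, minus strand): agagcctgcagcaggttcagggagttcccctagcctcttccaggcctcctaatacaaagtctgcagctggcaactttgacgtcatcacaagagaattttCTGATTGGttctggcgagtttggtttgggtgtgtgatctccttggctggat
H2-Eb1 (chr17:34305717-34305866, plus strand): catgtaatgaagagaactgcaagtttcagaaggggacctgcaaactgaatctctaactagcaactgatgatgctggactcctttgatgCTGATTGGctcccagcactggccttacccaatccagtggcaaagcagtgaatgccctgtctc
Fasn (chr11:120824548-120824697, minus strand): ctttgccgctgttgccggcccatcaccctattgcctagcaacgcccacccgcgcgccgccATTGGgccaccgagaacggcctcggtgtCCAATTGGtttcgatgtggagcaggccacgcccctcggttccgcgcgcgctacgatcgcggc
Mvd (chr8:122443423-122443572, minus strand): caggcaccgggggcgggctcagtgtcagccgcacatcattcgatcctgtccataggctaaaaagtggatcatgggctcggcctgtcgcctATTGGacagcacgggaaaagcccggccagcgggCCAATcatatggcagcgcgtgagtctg

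Fasn holds 3 matches, of which 2 overlap, and Mvd 2. The Y box starts 51 bases before the start of H2-Aa and 62 before that of H2-Eb1. Among 32851 promoter windows of this length 3.16% held it on either strand, and 24.5% held a CCAAT box. Of 8 class II genes with a listed promoter 3 held the Y box and 6 a CCAAT box. Of 16 cholesterol synthesis genes with one, 15 held a CCAAT box, as did 10 of 19 fatty acid synthesis genes. These are counts of genes, whereas the shares above are of windows, and some genes have several. By window a CCAAT box was held by 15 of 19 for cholesterol synthesis and 10 of 26 for fatty acid synthesis. For class II it was held by 6 of 9, and the Y box by 3 of 9. A match is a description of the letters and does not show that a factor binds there.

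**Figure D3:**
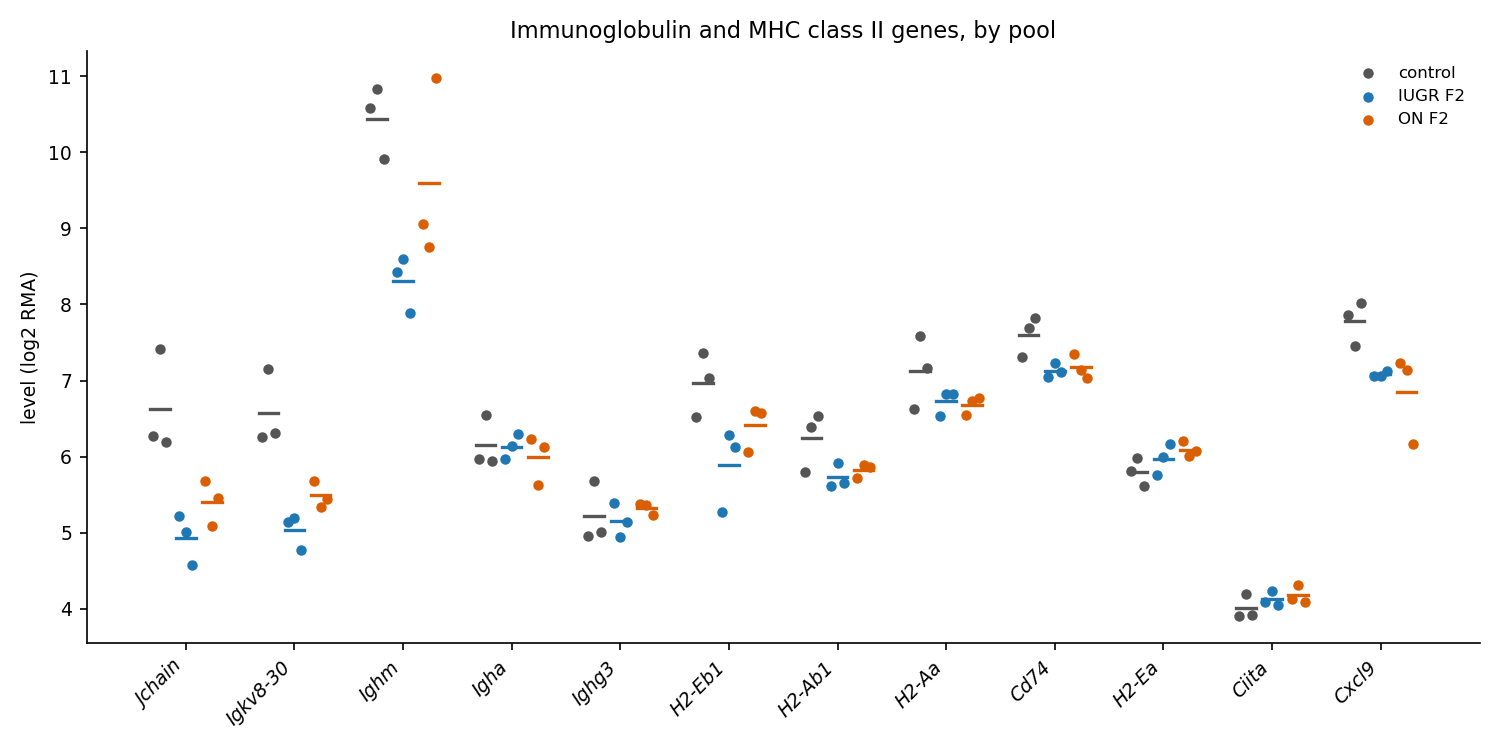
Each point is a pool and each short line a group mean, on the level axis (log2 RMA), for immunoglobulin genes, MHC class II genes and Cxcl9. Jchain, Igkv8-30 and Cxcl9 have no overlap between the F2 and control pools, and for Ighm pool 15 of the ON line stands at 10.98, above the controls.

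Fatty acid synthesis was the list with the lowest median. Of its 23 measured genes 20 lay lower in F2 and 7 were lower at an unadjusted p under 0.05, with none higher. Over all genes 52.6% lay lower and 47.4% higher. Of the genes with a mean of at least 5, as all of these have, 62.0% lay lower and 11.3% were lower under that threshold. The count of 7 moved with single pools. It was 3 without control pool 1, 2 without control pool 2, 4 without pool 12 or pool 13, and 13 without pool 15. With the actin ratio as covariate it was 3, and the median -0.22. The median difference of the list was -0.34, at -0.43 in IUGR F2 and -0.26 in ON F2 against the same control pools. By pool the list median stood at 0.18, 0.04 and -0.20 around the control mean in control pools 1 to 3. It stood at -0.28, -0.56 and -0.75 in IUGR F2 and at -0.41, -0.35 and 0.05 in ON F2. Pool 15 lay within the control range, and the other F2 pools lay below it. The F1 pools reached from -0.26 to 0.86.

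Citrate leaves mitochondria through Slc25a1, and Acly, Acaca and Fasn turn it into palmitate with NADPH that Me1 supplies. Slc25a1 stood at 10.63, 10.38 and 10.53 in control, at 10.14, 10.25 and 10.11 in IUGR F2, and at 10.20, 10.27 and 10.33 in ON F2. It was the member of the list without overlap, at -0.29 ± 0.09. Fasn stood at 12.25, 11.90 and 11.60 in control, at 11.36, 11.10 and 10.75 in IUGR F2, and at 11.06, 11.57 and 11.80 in ON F2. All IUGR pools lay below the controls, while ON pool 15 lay among them. The difference was -0.64 ± 0.27, a 1.56-fold lower level, at an adjusted p of 0.398 with limma. Acaca, the carboxylase that commits carbon to this path, lay at -0.37 ± 0.19, Me1 at -0.83 ± 0.36 (-0.53 without control pool 1) and Acly at -0.31 ± 0.29 (-0.20 without control pool 1).

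Elongation and desaturation follow. Elovl6, which extends palmitate to stearate, lay at -0.72 ± 0.34. Scd1, the main stearoyl-CoA desaturase of liver, stood at 13.94, 13.90 and 13.65 in control, at 13.52, 13.24 and 13.50 in IUGR F2, and at 13.48, 13.37 and 13.86 in ON F2. Pool 15 again stood among the controls, and the difference was -0.34 ± 0.12, or -0.63 with the mean of its 2 probe sets. Scd2, an isoform better known from brain, stood at 6.51, 5.78 and 6.74 in control, at 5.03, 5.44 and 5.54 in IUGR F2, and at 6.03, 5.43 and 5.84 in ON F2. Pools 13 and 15 stood above control pool 2. The difference was -0.79 ± 0.20 at an adjusted p of 0.237 with limma, and -0.30 with the mean of 3 probe sets. Pnpla3, a lipogenic lipase of lipid droplets, stood at 7.12, 7.25 and 6.34 in control. It stood at 5.48, 5.25 and 4.86 in IUGR F2 and at 5.09, 5.80 and 7.15 in ON F2, a difference of -1.30 ± 0.60. Srebf1, the gene of the lipogenic factor SREBP-1, lay at -0.21 ± 0.22, but at 0.03 without control pool 2 and -0.43 without control pool 3, and Nr1h3, which encodes LXR alpha, at -0.13 ± 0.07.

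All 20 measured genes of cholesterol synthesis lay lower in F2, 5 of them at an unadjusted p under 0.05, and their median was -0.16. Over the settings without single pools, with other scalings and with other covariates, between 17 and 20 lay lower. The count of 5 was 2 without control pool 1, 1 without control pool 3, 3 without pool 10 or pool 15, and 1 with the actin ratio as covariate. By pool the median stood at -0.02, -0.18 and 0.18 in control, at -0.44, -0.04 and -0.23 in IUGR F2, and at -0.09, -0.07 and -0.52 in ON F2. Pools 11, 13 and 14 lay within the control range and pools 10, 12 and 15 below it. The F1 pools lay at -0.58 to -0.05, so they too lay on the lower side.

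Pmvk and Mvd carry out late steps from mevalonate to isoprenoid units, and Dhcr7 closes the path to cholesterol. Mvd stood at 8.41, 7.96 and 8.36 in control, at 7.61, 8.05 and 7.86 in IUGR F2, and at 7.73, 7.61 and 7.52 in ON F2. Pool 11 lay above control pool 2, and the difference was -0.51 ± 0.15. Pmvk stood at 9.33, 9.01 and 9.28 in control, at 8.78, 8.73 and 8.58 in IUGR F2, and at 8.80, 8.66 and 8.97 in ON F2, with no overlap and a difference of -0.45 ± 0.18. Dhcr7 lay at -0.36 ± 0.13, Nsdhl at -0.29 ± 0.13, Hsd17b7 at -0.26 ± 0.14 and Sqle at -0.21 ± 0.18. Without control pool 3 Nsdhl was -0.19 and Sqle -0.06, and Sqle was -0.10 without pool 15 and -0.14 without pool 10. The smallest adjusted p of these 6 genes was 0.293 with limma.

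**Figure D4:**
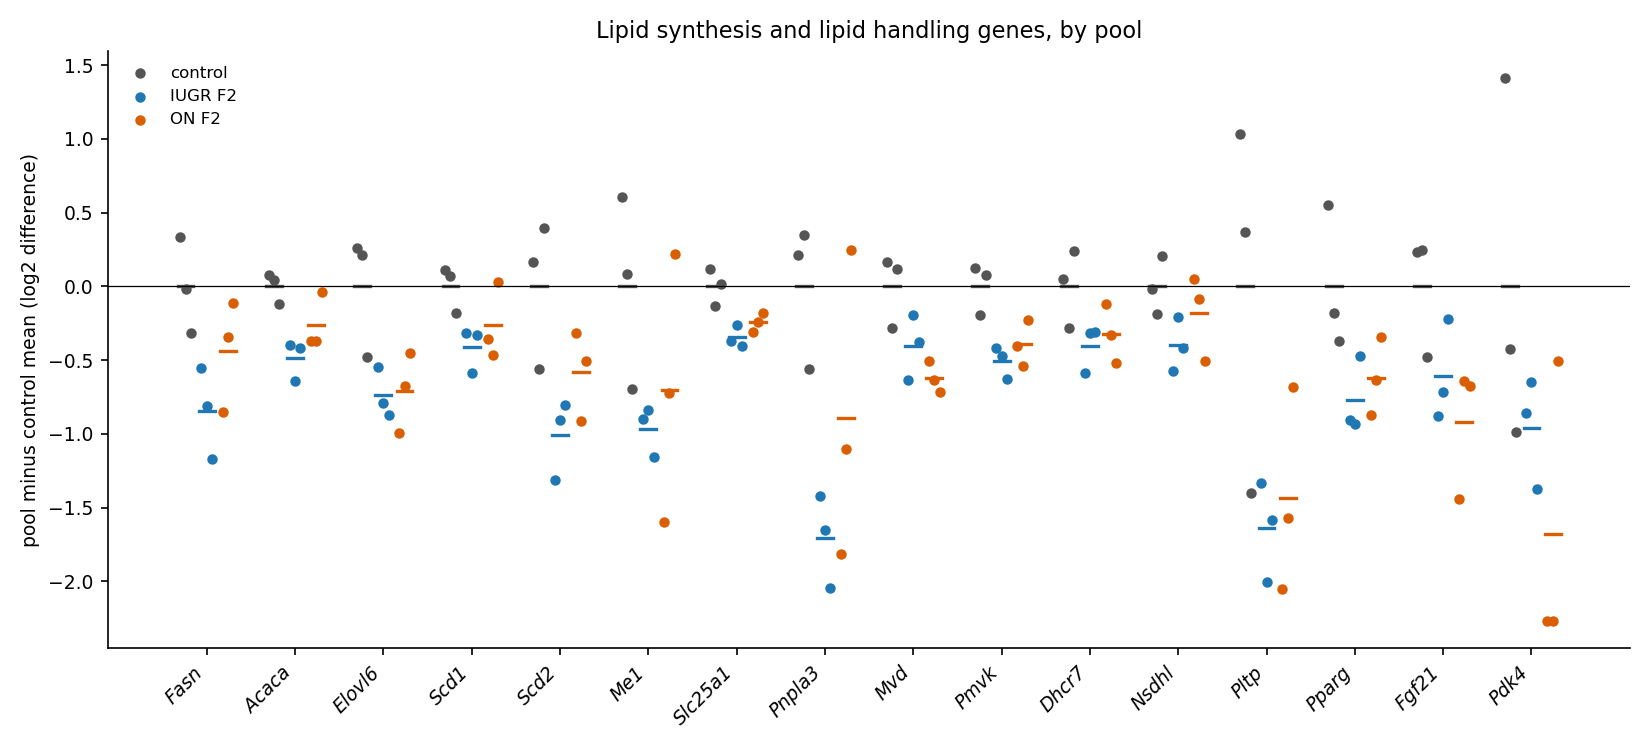
Each point is a pool, plotted as its level minus the mean of the control pools (log2) for genes of fatty acid synthesis, cholesterol synthesis and lipid handling; short lines are group means. IUGR F2 means lie below 0 for each gene shown, and pool 15 of the ON line lies above 0 for Scd1, Me1 and Pnpla3.

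Genes of lipid uptake, storage and oxidation also lay mostly on the lower side, as did 62.0% of the genes with a mean of at least 5. Pltp, the phospholipid transfer protein and an LXR target, stood at 10.55, 9.89 and 8.12 in control, at 8.19, 7.52 and 7.94 in IUGR F2, and at 7.47, 7.95 and 8.84 in ON F2. Control pool 3 lay among the F2 pools. The difference was -1.54 ± 0.47 at an adjusted p of 0.293 with limma, -2.24 without control pool 3 and -1.02 without control pool 1. Of 13 genes of LXR and its targets, Pltp included, 7 lay lower, and the median was -0.01. Pparg, the receptor of fat storage, stood at 6.26, 5.52 and 5.34 in control, at 4.80, 4.77 and 5.24 in IUGR F2, and at 4.83, 5.07 and 5.36 in ON F2. Pool 15 alone overlapped the controls, and the difference was -0.69 ± 0.19, or -0.42 without control pool 1. Of 22 lipid droplet and lipolysis genes 19 lay lower (86.4%), 5 under the unadjusted threshold (22.7%), with a median of -0.14. For the genes with a mean of at least 5 these values were 62.0%, 11.3% and -0.04. The count of 5 was 1 without control pool 1, 2 without pool 10 or pool 13, and 8 without control pool 3 or pool 15.

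PPARA switches on genes of fasting. Fgf21, a hormone that liver releases in fasting, stood at 6.23, 6.24 and 5.52 in control, at 5.12, 5.28 and 5.78 in IUGR F2, and at 4.55, 5.35 and 5.32 in ON F2. Pool 12 overlapped the controls, and the difference was -0.76 ± 0.24. Pdk4, which spares glucose by blocking pyruvate dehydrogenase, stood at 7.98, 6.14 and 5.58 in control, at 5.71, 5.92 and 5.20 in IUGR F2, and at 4.30, 4.30 and 6.06 in ON F2. Control pool 1 stood far above the rest. The difference of -1.32 ± 0.52 was -0.61 without that pool. Ppara itself lay at 0.00 ± 0.12. Of 20 PPARA targets 15 lay lower, 3 under the unadjusted threshold, with a median of -0.15. That median was -0.07 without control pool 2, -0.10 without control pool 1 and -0.05 with the actin ratio as covariate. Of the 20 targets 7 had a mean below 5. Of all genes 52.6% lay lower and 7.36% were lower under the unadjusted threshold. For the genes with a mean of at least 5 these shares were 62.0% and 11.3%.

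Fatty acid beta-oxidation had 19 of 22 genes lower (86.4%) and 5 under the unadjusted threshold (22.7%), with a median of -0.08. For the genes with a mean of at least 5, as all of these have, the values were 62.0%, 11.3% and -0.04. The count of 5 was 1 without control pool 1, control pool 2, pool 13 or pool 14, and 2 without pool 11 or pool 12. The list median was -0.04 without control pool 2. Hadha, the alpha part of the mitochondrial trifunctional protein, stood at 10.29, 10.07 and 10.04 in control, at 9.82, 9.86 and 9.84 in IUGR F2, and at 9.91, 9.84 and 9.82 in ON F2. The F2 pools spread over less than the controls did and did not overlap them. The difference was -0.28 ± 0.08 at an adjusted p of 0.284 with limma. Acaa1b, a thiolase of peroxisomes, lay at -0.38 ± 0.15 and Hadh, the next mitochondrial dehydrogenase, at -0.13 ± 0.06. Cpt1a, the gate of fatty acids into mitochondria, lay at 0.03 ± 0.13. Of 36 respiratory chain genes 28 lay lower (77.8%) with a median of -0.05, beside 62.0% and -0.04 for the genes with a mean of at least 5. Of the 36, 1 was under the unadjusted threshold (2.8%, beside 11.3% lower among those genes).

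In sugar metabolism, Pfkl, the liver phosphofructokinase of glycolysis, stood at 7.68, 7.25 and 7.30 in control, at 6.97, 6.98 and 6.86 in IUGR F2, and at 7.16, 6.98 and 6.94 in ON F2. The groups did not overlap, the difference was -0.43 ± 0.09 and the adjusted p was 0.164 with limma. It was -0.13 with the mean of its 3 probe sets, 1 of which pointed the other way. G6pc, the glucose-6-phosphatase that frees glucose into blood, stood at 10.11, 10.03 and 10.43 in control, at 10.69, 10.87 and 10.45 in IUGR F2, and at 10.46, 10.49 and 10.42 in ON F2. Pool 15 alone lay within the control range, and the difference was 0.37 ± 0.14. Pck1, the other key enzyme of glucose output, lay at 0.29 ± 0.33 (0.14 to 0.51 with a pool left out), and Pcx, which feeds that path from pyruvate, at -0.16 ± 0.08. Among 18 insulin signalling genes 9 lay lower and the median was -0.01. Irs2 and Insr lay at 0.30 ± 0.23 and 0.03 ± 0.08, and Igf1 at -0.06 ± 0.10. Irs2 was 0.03 without control pool 2 and 0.46 without control pool 1.

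Of 18 CAR and PXR targets, which are detoxifying genes, 12 lay lower (66.7%, beside 62.0% of the genes with a mean of at least 5). Of these 4 were under the unadjusted threshold (22.2% of the 18, beside 11.3%), or 2 without control pool 1. The list median was -0.21, or -0.11 without control pool 2. Cyp2b9, a cytochrome P450 more active in females, stood at 5.16, 6.30 and 5.27 in control, at 4.44, 3.89 and 4.14 in IUGR F2, and at 5.12, 4.18 and 4.74 in ON F2. The groups did not overlap, though pool 13 came close. The difference was -1.16 ± 0.42, and -0.80 without control pool 2. Nr1i2, the gene of PXR, differed by -0.31 ± 0.12 without overlap (-0.16 with the actin ratio as covariate), and the export pump Abcc3 by -0.56 ± 0.19. Of 24 NRF2 antioxidant genes 19 lay lower (79.2%), 5 under the unadjusted threshold (20.8%), with a median of -0.15. For the genes with a mean of at least 5 these shares were 62.0% and 11.3%. The count of 5 was 3 without control pool 1, and 8 without control pool 2 or pool 15. Nqo1, the quinone reductase that marks NRF2 activity, stood at 5.23, 5.10 and 5.00 in control, at 4.77, 4.90 and 4.65 in IUGR F2, and at 4.80, 4.66 and 4.87 in ON F2. Its difference was -0.34 ± 0.11 with no overlap, Gstm2 lay at -0.47 ± 0.17 and Gstm3 at -0.51 ± 0.26. Without control pool 1 Gstm2 was -0.24, Gstm3 -0.22 and the list median -0.08.

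Protein folding and turnover gave small differences over many genes. Of 31 proteasome subunits 28 lay lower (90.3%) and 5 were under the unadjusted threshold (16.1%), but the median was -0.09. These subunits and the chaperone and heat shock genes below all have means of at least 5. Of all such genes 62.0% lay lower and 11.3% were lower under that threshold, with a median of -0.04. The count of 5 was 2 without control pool 1, control pool 3 or pool 10, and 3 without pool 13 or pool 14. Psmb7, a catalytic subunit, stood at 9.16, 8.63 and 8.85 in control, at 8.42, 8.58 and 8.09 in IUGR F2, and at 8.41, 8.11 and 8.26 in ON F2. The groups did not overlap, and the difference was -0.57 ± 0.14. Psmd13 and Psmd8 of the regulatory particle lay at -0.21 ± 0.08 and -0.18 ± 0.07. Over the 9 settings of the fit or scaling the difference of Psmd13 shrank to as little as -0.05. Of 24 chaperone and unfolded protein response genes 18 lay lower with a median of -0.12. The chaperones Hyou1 and Dnajb9 lay at -0.47 ± 0.18 and -0.30 ± 0.12. Ern1, the stress sensor that splices Xbp1, lay at 0.25 ± 0.10, on the higher side with Xbp1. Of 17 cytosolic heat shock genes 14 lay lower (82.4%), among them the co-chaperone Bag3 at -0.35 ± 0.10, with a median of -0.11. Of the 17, 2 were lower under the unadjusted threshold (11.8%, near the 11.3%). The ATF4 target Atf3 stood at -0.29 ± 0.09 without overlap, or -0.19 without control pool 2. Ribosomal proteins lay near control, with a median of -0.03 over 27 genes.

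Imprinted genes, which are read from the copy of only 1 parent, lay on both sides of control. Of 32 measured, 20 lay higher and 5 were higher at an unadjusted p under 0.05 (15.6%, beside 4.07% of all genes), with a median of 0.07. The count of 5 was 2 without control pool 1 or pool 12, and 3 without control pool 3, pool 11 or pool 13. The median was 0.02 without pool 15. Of the 32, 17 had a mean below 5, and without the dim members the median was -0.05. Meg3, a long RNA read from the maternal copy, stood at 6.57, 6.74 and 6.36 in control, at 6.64, 6.73 and 7.41 in IUGR F2, and at 7.35, 7.43 and 7.73 in ON F2. IUGR pools 10 and 11 lay among the controls, and the other F2 pools lay above them. The difference was 0.66 ± 0.27, at 0.37 in IUGR F2 and 0.95 in ON F2. It was 0.33 with the actin ratio as covariate and 0.34 with the mean of 11 probe sets. Kcnq1, a potassium channel gene of an imprinted cluster, stood at 5.21, 5.30 and 5.31 in control, at 5.51, 5.32 and 5.50 in IUGR F2, and at 5.69, 5.53 and 5.73 in ON F2. The F2 pools all lay above the controls, and the difference was 0.27 ± 0.11. The F1 pools of Kcnq1 lay at 5.44 to 5.91, also above them. Ppp1r9a, a neural actin-binding protein of another imprinted cluster, lay at 0.38 ± 0.15, and at as little as 0.15 over the 9 settings of the fit or scaling.

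Genes that write or read DNA methylation lay near control, with 7 of 16 lower, a median of 0.02 and 0 under the unadjusted threshold in either direction. Dnmt1, the maintenance methyltransferase, lay at -0.09 ± 0.08 and Dnmt3a, which methylates new sites, at -0.15 ± 0.17. Of 34 histone modifiers 23 lay lower (67.6%) with a median of -0.03, near the 62.0% and -0.04 of the genes with a mean of at least 5. Ehmt2, which methylates histone H3 at lysine 9, stood at 8.51, 8.44 and 8.51 in control, at 8.32, 8.15 and 8.27 in IUGR F2, and at 8.31, 8.25 and 8.20 in ON F2. There was no overlap, and the difference was -0.24 ± 0.06 at an adjusted p of 0.249 with limma, and -0.05 with the mean of 2 probe sets. Its F1 pools lay at 8.21 to 8.34, also below the controls. Kdm2b, a histone demethylase, lay at 0.21 ± 0.07 and Nsd1, a histone methyltransferase, at -0.16 ± 0.06, the latter at 0.02 with the mean of 4 probe sets.

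Where the lineages parted was tested directly, by IUGR F2 against ON F2, a comparison that uses no control pool. It called 0 genes (0.0%) higher and 1 gene (0.0055%) lower in IUGR F2. At an unadjusted p under 0.05 it held 977 genes (5.37%) higher and 867 (4.77%) lower. The called gene was Mmd2, a membrane protein of the progestin and adipoQ receptor family. It stood at 5.29, 5.38 and 5.62 in IUGR F2, at 6.79, 6.35 and 6.71 in ON F2, and at 5.73, 5.98 and 5.66 in control. The difference was -1.19 ± 0.14 (limma adjusted p = 0.0079). Against control Mmd2 lay at -0.36 in IUGR F2 and at 0.83 in ON F2, so its pooled difference of 0.23 ± 0.12 describes neither. Of the 20 leading genes 0 were called between the lineages, and 2 (Tcof1 and Btrc) were under the unadjusted threshold. Those genes were chosen because all 6 F2 pools lay on the same side of control. These counts therefore cannot show whether the lineages agree. Dnmt3b, the other new-site methyltransferase, was split in the opposite direction, with its mean higher in IUGR F2 and lower in ON F2 than in control. It stood at 6.52, 6.08 and 6.43 in control, at 7.13, 6.79 and 6.89 in IUGR F2, and at 6.01, 5.71 and 6.51 in ON F2. The F2 difference from control, 0.16, was 0.03 without control pool 2 and 0.05 without pool 15. The lineage difference of 0.86 was not called (limma adjusted p = 0.216).

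Markers of the tissue and of other cells were set beside these results. The 16 hepatocyte markers had mean levels of 11.46 to 11.67 in the control pools and 11.52 to 11.78 in the F2 pools, with a median difference of 0.00, and were thus high in every pool. Of 22 stellate cell and matrix genes 19 lay lower (86.4%) and 4 were under the unadjusted threshold (18.2%), with a median of -0.19. For the genes with a mean of at least 5 these values were 62.0%, 11.3% and -0.04. The count of 4 was 0 without pool 10, 2 without control pool 2, control pool 3 or pool 14, and 7 without pool 11. The collagens Col3a1 and Col4a1 lay at -0.46 ± 0.18 and -0.38 ± 0.15. Timp1, an inhibitor of matrix proteases, lay at 0.28 ± 0.11. The mean level of the list was 6.68 to 6.81 in control and 6.36 to 6.76 in F2. Of 21 Kupffer cell markers 19 lay lower in IUGR F2 and 6 in ON F2, beside 9724 and 9218 of the 18193 genes, with medians of -0.24 and 0.15 against the same controls. By pool the median stood at -0.53, 0.11 and -0.34 in IUGR F2 and at 0.43, -0.04 and 0.12 in ON F2, against -0.23, -0.02 and 0.33 in control. IUGR pool 11 lay above ON pool 14, so the lineages overlapped, and 0 of the 21 markers were called between them. T cell markers lay higher in 13 of 17 (76.5%), with a median of 0.08 and values of 0.11 for Cd3e and 0.09 for Cd4. Of the 17, 13 had a mean below 5, and of all genes below 5 59.7% lay higher. Neutrophil, erythroid, bile duct and adipocyte lists had medians of -0.04, 0.08, 0.09 and 0.00, skeletal muscle 0.03 and sinusoidal endothelium -0.06.

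Transcripts of the exocrine pancreas stood out in ON F2 pool 13. Cela2a, an elastase of acinar cells, stood at 10.08 there and at 5.22 to 5.94 in the other F2 pools, against 5.13 to 5.21 in control. Cpb1 stood at 9.35 and Ctrb1 at 10.06 in that pool. The list median, 0.68 over the F2 pools, was 0.06 without pool 13. The mean level of the 21 markers was 5.13 to 5.22 in control and reached 8.16 in pool 13. Without this pool 830 genes were higher and 1371 lower at an unadjusted p under 0.05, so the counts over all genes did not rest on it. Levels of a clock gene varied between pools as well. The clock output factor Dbp stood at 5.88, 10.07 and 6.89 in control, at 5.46, 6.18 and 7.97 in IUGR F2 and at 9.84, 10.71 and 6.54 in ON F2; each group held a low pool, and the IUGR line no pool above 7.97. With a clock score as covariate 762 genes were higher and 1376 lower.

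**Figure D5:**
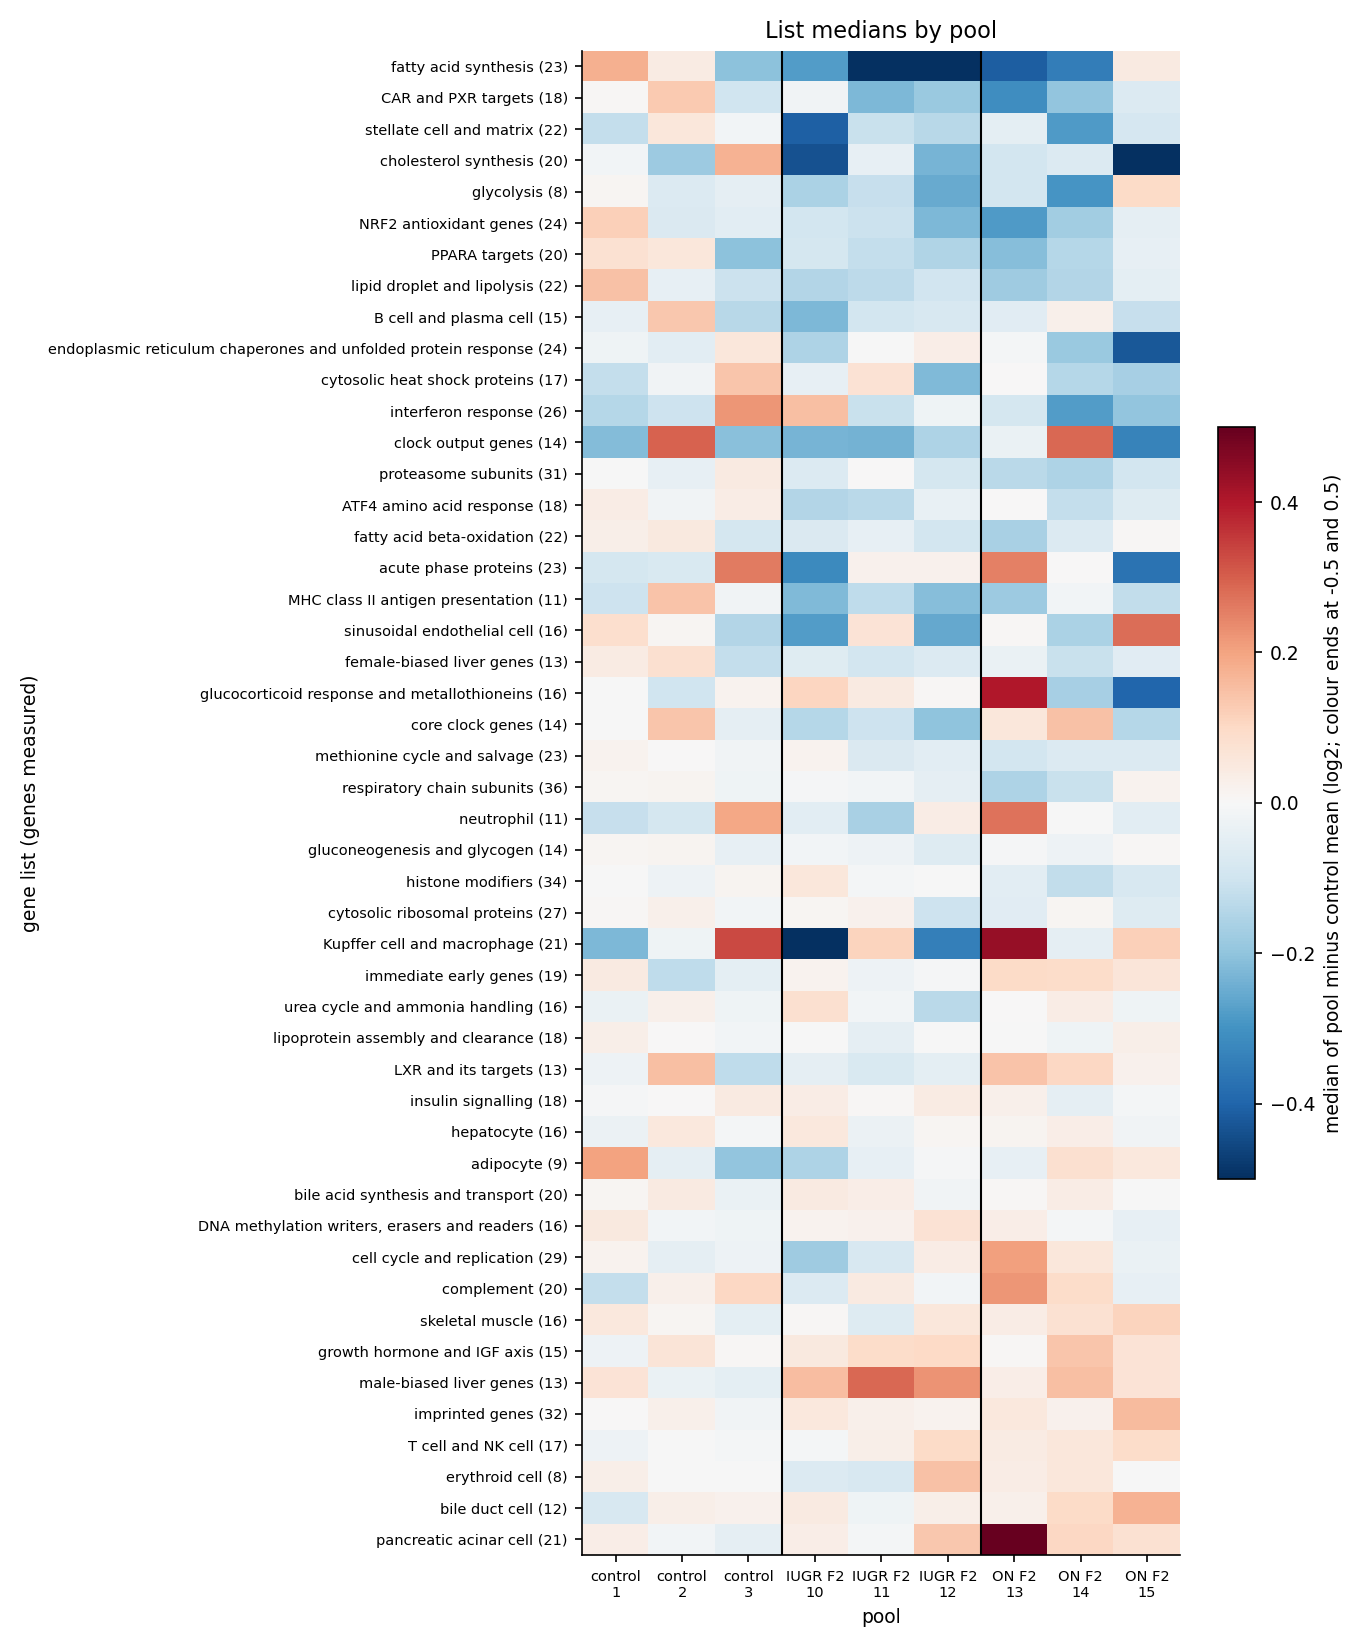
Each row is a gene list with its number of measured genes, ordered by the F2 median; each column is a pool, and the colour is the median over the list of the pool minus the control mean (log2), with the scale ending at -0.5 and 0.5. Fatty acid synthesis is lowest, with -0.75 in pool 12 and 0.05 in pool 15, and pancreatic acinar genes are highest through pool 13 at 3.89.

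Lists tied to growth hormone had medians near control. Of 13 male-biased liver genes 11 lay higher (84.6%, beside 38.0% of the genes with a mean of at least 5), with a median of 0.06. Their differences reached 1.35, and 1 member had all F2 pools above all controls. None was under the unadjusted threshold, and 6 of the 13 lay lower with arrays centred. Of 13 female-biased genes 8 lay lower (61.5%, beside 52.6% of all genes) with a median of -0.06. Acute phase proteins ran from -0.37 in pool 15 to 0.25 in pool 13 by their list median and from -0.09 to 0.26 in control, and 0 of 23 were under the unadjusted threshold. Single members differed more: the differences ran from -1.60, the lowest of all genes, to 0.20. In 1 member all F2 pools lay above all controls. Complement, bile acid and lipoprotein genes had medians of 0.02, 0.01 and -0.01. Methionine cycle genes lay lower in 17 of 23 (73.9%) with a median of -0.05, beside 62.0% and -0.04 for the genes with a mean of at least 5. Cbs, which draws homocysteine towards cysteine, stood at 11.07, 10.80 and 10.90 in control, at 10.74, 10.69 and 10.63 in IUGR F2, and at 10.80, 10.58 and 10.70 in ON F2. There was no overlap, though F2 pool 13 lay beside control pool 2, and the difference was -0.24 ± 0.07. Of 29 cell cycle genes 20 lay lower in IUGR F2 and 8 in ON F2, beside 9724 and 9218 of the 18193 genes. Of the 29, 14 had a mean below 5. Of all 7830 genes below 5, 3839 lay lower in IUGR F2 and 2719 in ON F2. The medians of the cell cycle list by pool ran from -0.18 to 0.04 in IUGR F2 and from -0.03 to 0.20 in ON F2. These ranges overlap, and 0 members were called between the lineages. Pcna, the sliding clamp of replication, lay at -0.22 ± 0.08 without overlap.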

How the data were processed

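Gene expression was measured in 15 liver pools on the Affymetrix GeneChip Mouse Genome 430 2.0 array, 3 pools in each of 5 groups. The deposited values are log2 levels per probe set, and RMA is the tool that the submitters' processing notes name for them. No version of RMA was given in those notes. RMA equalises the arrays by quantiles, so shifts shared by most genes are removed, and dim probe sets are compressed, so their differences are understated. Samples were grouped by title and treatment label.

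Of 45101 probe sets 64 controls were left out, and 34945 had 1 gene symbol in the platform annotation, 932 several and 9160 none. Of those with 1 symbol, 34741 matched the RefSeq gene table (GRCm38.p6) by Entrez identifier. Each of 18193 genes was read at its brightest probe set over the 15 arrays. Array pairs correlated at 0.983 to 0.995 across probe sets, and 0 pairs were identical.

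Group means were fitted over 15 arrays with limma 3.58.1 in R 4.3.3 (eBayes without a trend, two-sided, Benjamini-Hochberg over all genes, threshold 0.05), with 10 residual and 4.69 prior degrees of freedom. The fit was tested on simulated data. The main contrast was the mean of IUGR F2 and ON F2 minus control. IUGR F2 against ON F2 and F2 against F1 were fitted too. The lineage values share the control pools, so no overlap between them was taken. Of 48 gene lists with 1021 entries, 911 were measured. Tables and figures were made in Python 3.11.15.

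Named genes were, for each direction, the 10 with the smallest p whose F2 pools did not overlap the controls, up to 3 members of each list under an unadjusted p of 0.05, and a panel of 17 genes. Outside that rule 23 genes were named after their values were seen: Mmd2, H2-Aa, H2-Ea, Ciita, Acly, Elovl6, Me1, Pnpla3, Hsd17b7, Nsdhl, Sqle, Gstm3, Igha, Ighg3, Mzb1, Ms4a1, Cd79a, Cd79b, Cd3e, Cd4, Cela2a, Ctrb1 and Cpb1. The immunoglobulin genes by symbol were also collected then. The members and lists were chosen with earlier results of these data known. The 24 alternative settings were 9 of the fit or scaling and 15 that leave out a pool.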

Additional observations from a re-analysis of the deposited data

Results flagged for a closer look

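Among 149 sets of 6 F2 values (genes named by the rule and list medians), 8 held a pool whose gap to its nearest neighbour was a large part of the whole range, where chance gives about 1 in 20. Abcc3 was lowest in pool 13 at 8.30, Acox2 in pool 10 at 10.85, Cxcl9 in pool 15 at 6.17, Pck1 in pool 15 at 10.66 and Plch1 in pool 10 at 3.46. The list median of the methionine cycle and salvage genes was highest in pool 10, at 0.0191 above the control mean. That of imprinted genes was highest in pool 15 at 0.158, and that of pancreatic acinar genes in pool 13 at 3.89.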

How the results depend on the processing

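No paired analysis was possible because the pools are numbered 1 to 15 and no number is shared between groups. In the 24 settings 0 named genes passed an adjusted p of 0.05 in F2 against control (limma), and the smallest adjusted p of any gene lay between 0.0576 without IUGR F2 pool 10 and 0.401 without control pool 1. Genes higher at an unadjusted p under 0.05 numbered 359 with arrays centred and 319 among genes with a mean of at least 5. Lower genes numbered 2198 with arrays centred, and 868 (without control pool 1) to 1427 (without ON F1 pool 7) with a pool left out. With the actin ratio as covariate 552 were higher and 1109 lower. Between the lineages, genes called higher in IUGR F2 numbered 1 with 9 arrays, with centring, with the clock score, with robust moderation and with a trend, 3 with the level filter, and 0 to 2 with a pool left out. Genes called lower numbered 3 with the clock score, the trend and the level filter, 0 with the mean of probe sets, and 0 to 7 with a pool left out. Of the genes with an unadjusted p under 0.05 that the rule named, Btrc and Nsd1 reversed, at 0.04 and 0.0185 with the mean of probe sets. The other reversals were of genes with an unadjusted p of 0.05 or more. With the actin ratio Cpt1a was -0.0274, Dbp -0.187, Ppara 0.0307 and Ighg3 -0.0157. With centring Cpt1a was -0.0121, Insr -0.0108 and Ighg3 -0.0099. With the mean of probe sets Dnmt1 was 0.0212, Dnmt3a 0.0508 and Ighg3 -0.0478, and with the clock score Ppara was 0.0019. With a pool left out the ranges were -0.0435 to 0.0909 for Cpt1a, -0.699 to 1.40 for Dbp, -0.111 to 0.0417 for Igf1, -0.0271 to 0.0642 for Insr, -0.119 to 0.101 for Ppara, -0.435 to 0.0318 for Srebf1, -0.195 to 0.102 for Igha, -0.0994 to 0.258 for Ighg3 and -0.425 to 0.0113 for Ms4a1. The cause was not tested. Of the 48 lists, fatty acid synthesis kept 20 or 21 of 23 genes lower, with medians of -0.43 to -0.22.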

Other observations

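Several genes of other groups lay apart in F2 at an unadjusted p under 0.05, none of them called (limma adjusted p of 0.293 or more). Tfrc, the transferrin receptor that brings in iron, stood at 8.71, 8.43 and 8.76 in control, at 8.07, 8.38 and 8.00 in IUGR F2 and at 8.61, 8.32 and 8.00 in ON F2, a difference of -0.40 ± 0.13. Pool 13 lay among the controls and the others below. Over the 9 settings of the fit or scaling the difference of Tfrc shrank to as little as -0.09. Mcm6, a replicative helicase subunit, lay at -0.41 ± 0.17, but at -0.73 in IUGR F2 and -0.10 in ON F2. Its pooled difference shrank to as little as -0.19 over those settings, and that of Nr0b2, given next, to -0.27. Nr0b2, the SHP repressor of bile acid synthesis, lay at -0.55 ± 0.23 and Acox2, a peroxisomal oxidase that shortens bile acid side chains, at 0.15 ± 0.07. Tat, a glucocorticoid-induced aminotransferase, lay at -0.25 ± 0.11. Rpl12 stood at 5.34, 5.38 and 5.32 in control and at 5.45 to 6.09 in F2, all above control, a difference of 0.47 ± 0.16. Tcap and Atp2a1, both of skeletal muscle, lay at 0.31 ± 0.10 and 0.34 ± 0.10 at levels under or near 5.

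Jchain, low in F2, was also toward the lower side in the fathers' generation: its 6 F1 pools stood at 5.13 to 6.21, against 6.19 to 7.41 in control and 4.58 to 5.68 in F2. H2-Eb1 stood at 5.84 to 7.25 in F1, which covers levels of both other groups.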
